A study of Mus musculus with 6 samples.

Results

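Melanosome transport genes were taken as the dilute myosin Myo5a, the small GTPases Rab27a, Rab27b, Rab32 and Rab38, and the Rab27 effectors Mlph, Myrip and Sytl2. All 8 symbols were found in the table of raw counts, each in a single row with no transcript suffix, out of 30510 features. All 8 also passed the filter on low counts and were tested among 18588 genes. The retinas came from 2 inbred strains that the labels give as wild type at 60 to 100 days after birth, C57BL/6J (B6) and DBA/2J (D2), with 3 stranded total RNA libraries each. The labels list no treatment and name both eyes as the source. Whether each library is a mouse of its own is not stated, and a p-value then speaks of the spread among these libraries, which may be technical. B6 is the strain of the mouse reference genome. D2 carries, as its name records, the dilute, brown and non-agouti coat colour alleles, and the dilute allele is a retroviral insertion in an intron of Myo5a.

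In skin melanocytes, active Rab27a on the melanosome binds melanophilin, the product of Mlph, which recruits myosin Va, the product of Myo5a, and so tethers the pigment granule to cortical actin. In the retinal pigment epithelium the linker is Myrip, which joins Rab27a to myosin VIIa, while Rab32 and Rab38 act earlier and deliver pigment enzymes to the maturing melanosome. The neural retina holds no melanosomes of its own, and several of these genes have further roles there: myosin Va carries cargo in neurons and photoreceptors, and Rab27 proteins and synaptotagmin-like proteins act in regulated secretion.

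Library totals ran from 31305777 to 43719666 counts in B6 and from 29417002 to 34478751 in D2. All 8 markers of neural retina were detected. Markers of pigment epithelium were detected as well: the summed level of 8 markers ran from 93.9 to 205 CPM in the B6 libraries and from 74.2 to 170.4 CPM in the D2 libraries. The summed level of 8 pigment cell markers ran from 29.9 to 68.8 CPM in B6 and from 18.3 to 73.9 CPM in D2, and none of either list was at 0. The summed level of the 5 tested ciliary epithelium markers was 194.7 to 204 CPM in B6 and 172 to 183 CPM in D2. The listed marker Msx1, with 11 to 18 counts in B6 and 0 to 3 in D2, was not tested and is not in that sum. The summed level of 6 microglia markers was 45.5 to 51.6 CPM in B6 and 35.8 to 38.9 CPM in D2. Both sums were lower in every D2 library than in every B6 library. Of the tested markers, 4 of 5 for ciliary epithelium and 3 of 6 for microglia fell in D2 and 0 rose, where 15.3% of all tested genes fell at an adjusted p under 0.05 in edgeR's quasi-likelihood test. Of the 8 neural retina markers 1 rose and 1 fell, or 25% called beside 29.7% of all tested genes. The ciliary epithelium and microglia lists moved in the direction of the lower transport genes described next. The median log2 fold changes of the pigment epithelium (-0.31) and pigment cell markers (-0.20) were also below 0, but their sums overlapped between strains. The part of any of these lists in the transport gene differences was not tested. For every value given here, fewer cells of a type and less RNA per cell cannot be told apart. The build named for both strains is mm10, which is B6 sequence, and its effect on the counts of D2 reads was not tested.

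Of the 8 genes, 4 were lower in D2 (Myo5a, Rab38, Myrip and Rab27b), 1 was higher (Rab27a) and 3 did not pass the test (Sytl2, Rab32 and Mlph), at an adjusted p under 0.05 in edgeR's quasi-likelihood test. Over all tested genes 29.7% were called, 14.5% as higher and 15.3% as lower in D2. The libraries of the strains did not overlap in 6 of the 8 genes, the 5 called ones and Sytl2, beside 42.3% of all tested genes. The median log2 fold change (D2 minus B6) of the 8 genes was -0.22, and that of all tested genes was 0.005. Without D2 replicate 2, 3 of the 8 passed. In that setting 4888 of 18863 tested genes were called, against 5524 of 18588 with all 6 libraries. Levels are in CPM, the counts of a gene for each 1000000 counts of the TMM-scaled library, and means carry the SD over n = 3 libraries per strain.

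**Figure D1:**
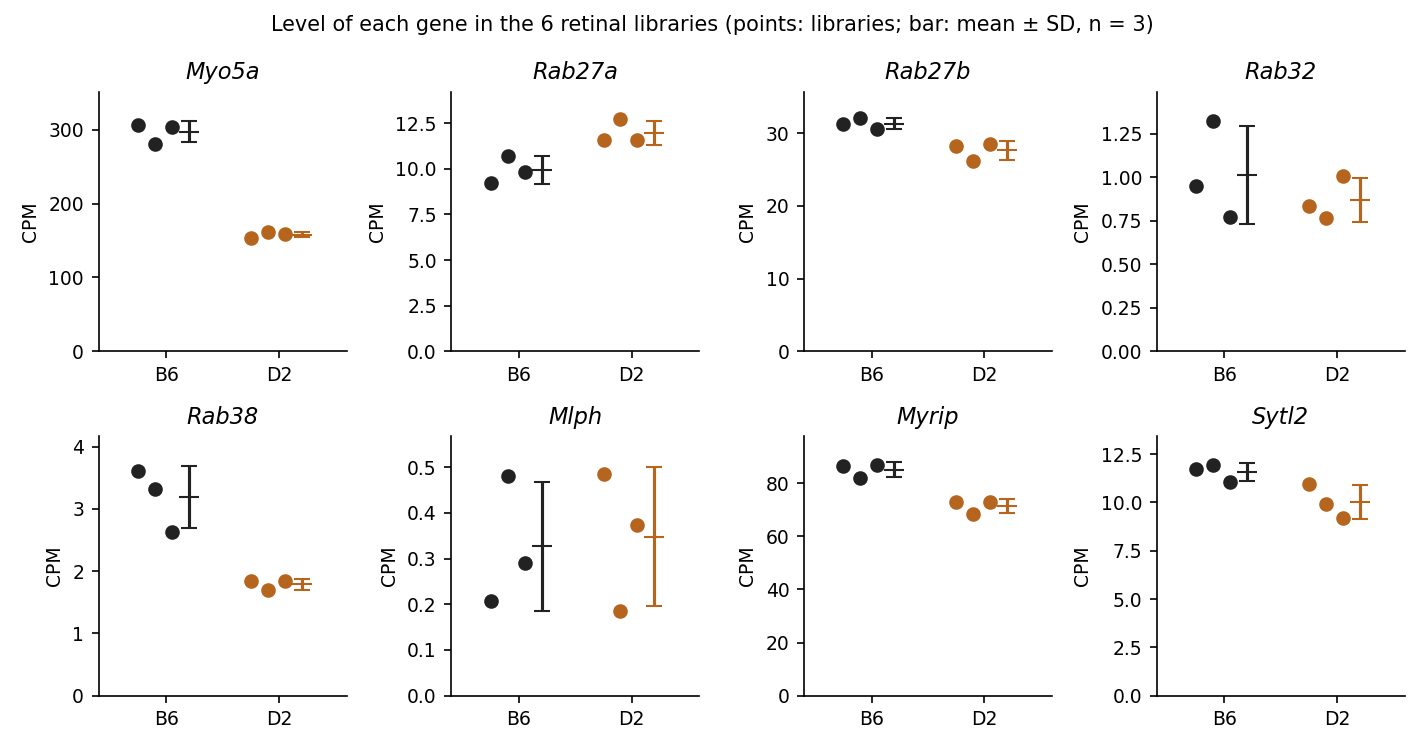
Level of the 8 genes in CPM (vertical axes, each from 0) in the 3 B6 and 3 D2 libraries; points are libraries and the bar beside them is the mean with its SD. Myo5a lay at 281 to 306 CPM in B6 and 154 to 161 CPM in D2, while the points of Rab32 and Mlph intermingled.

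Start regions are shown for the motor gene and for Rab27a, which lie on the same chromosome and moved in opposite directions, and for Mlph, the gene near the detection limit. The motif search below did not cover Rab27b, Rab38 or Sytl2, and nothing is said here of their start regions. RefSeq promoter windows on GRCm38.p6, of 250 bases before and 50 after an annotated start, were used for 5 of the 8 genes. These were 6 windows, with 2 starts for Rab27a. They were searched on both strands for the E-box CACGTG, the M-box core CATGTG or CACATG of the pigment cell factor MITF, and the photoreceptor CRX core TAATCC or GGATTA. The part outside annotated exons is printed, in the direction of the gene, with motif matches in capitals. All are reference (B6) sequence.
Myo5a, chr9:75070956-75071014, plus strand: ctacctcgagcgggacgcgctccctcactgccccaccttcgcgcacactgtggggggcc
Rab27a first start, chr9:73044560-73044809, plus strand: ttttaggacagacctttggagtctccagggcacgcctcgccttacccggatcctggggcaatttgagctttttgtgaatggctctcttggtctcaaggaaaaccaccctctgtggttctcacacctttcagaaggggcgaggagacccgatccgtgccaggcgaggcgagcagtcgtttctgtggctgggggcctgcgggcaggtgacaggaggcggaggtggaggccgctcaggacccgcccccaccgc
Rab27a second start, chr9:73063898-73064147, plus strand: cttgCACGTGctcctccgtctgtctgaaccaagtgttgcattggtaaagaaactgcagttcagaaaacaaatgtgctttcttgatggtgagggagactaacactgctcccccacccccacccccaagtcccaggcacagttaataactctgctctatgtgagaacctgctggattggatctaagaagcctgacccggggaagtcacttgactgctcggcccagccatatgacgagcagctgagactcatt
Mlph, chr1:90914850-90915084, plus strand: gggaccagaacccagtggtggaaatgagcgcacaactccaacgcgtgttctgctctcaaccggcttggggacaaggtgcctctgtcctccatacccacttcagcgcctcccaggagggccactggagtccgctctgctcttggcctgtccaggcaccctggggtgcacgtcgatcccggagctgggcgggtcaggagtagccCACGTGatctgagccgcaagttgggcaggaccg
An E-box was found in 2 of the 6 windows, 246 bases before the second Rab27a start and 48 bases before the Mlph start. Among 32851 windows of the same length in the table, 7.15% held an E-box, 14.2% an M-box core and 7.06% a CRX core. The M-box core and the CRX core occurred in 0 of the 6 windows, which says only that these letters are not in them. These matches are descriptions of the letters, not of binding.

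Myo5a (ENSMUSG00000034593.16, chromosome 9, 75071015 to 75223688, plus strand) encodes the heavy chain of myosin Va, the motor that moves vesicles and pigment granules along actin. It was counted at 306, 281 and 304 CPM in the B6 libraries and at 154, 161 and 159 CPM in the D2 libraries. Every D2 library stood far below every B6 library, and the spread within D2 was narrow. The mean went from 297 ± 14.2 CPM (B6) to 158 ± 3.74 CPM (D2; SD, n = 3), which is 46.7% lower (log2 fold change -0.91 ± 0.04, edgeR adjusted p = 2.08e-10). Of all tested genes, 5.67% had a larger absolute log2 fold change, and Myo5a ranked at position 97 by p. The 31-base words of its exons that also occurred in other genes made up 0.356%. The counts are per gene, so transcripts with and without the alternative exons that distinguish melanocyte and brain forms of myosin Va were not separated.

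Neighbours were sought among the 17893 of 18588 tested genes that could be matched to a position. Of these, neither gene next to Myo5a passed the test. Arpp19, which encodes a phosphatase inhibitor and ends 10.7 kb before Myo5a, had a mean of 69.6 ± 1.79 CPM for B6 and 70.0 ± 1.07 CPM for D2 (log2 fold change 0.01 ± 0.04, adjusted p = 0.912). Myo5c, a related class V myosin that begins 8.33 kb after it, stood at 1.51 ± 0.0882 and 1.60 ± 0.254 CPM (log2 fold change 0.08 ± 0.18, adjusted p = 0.774). No tested gene with a matched position overlapped Myo5a, Rab27a, Rab27b, Rab38 or Myrip. Within 3 Mb of the Myo5a start, 16 of 53 other tested genes with a matched position were called, 7 higher and 9 lower in D2. This is 30.2% beside 29.7% of all tested genes. Of those called, 3 differed by 2-fold or more, all lower in D2. They were BC065403 (log2 fold change -1.29) and, from B6 means of 1.07 and 1.24 CPM, Gm37150 (-8.25) and Gm36948 (-3.29).

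**Figure D2:**
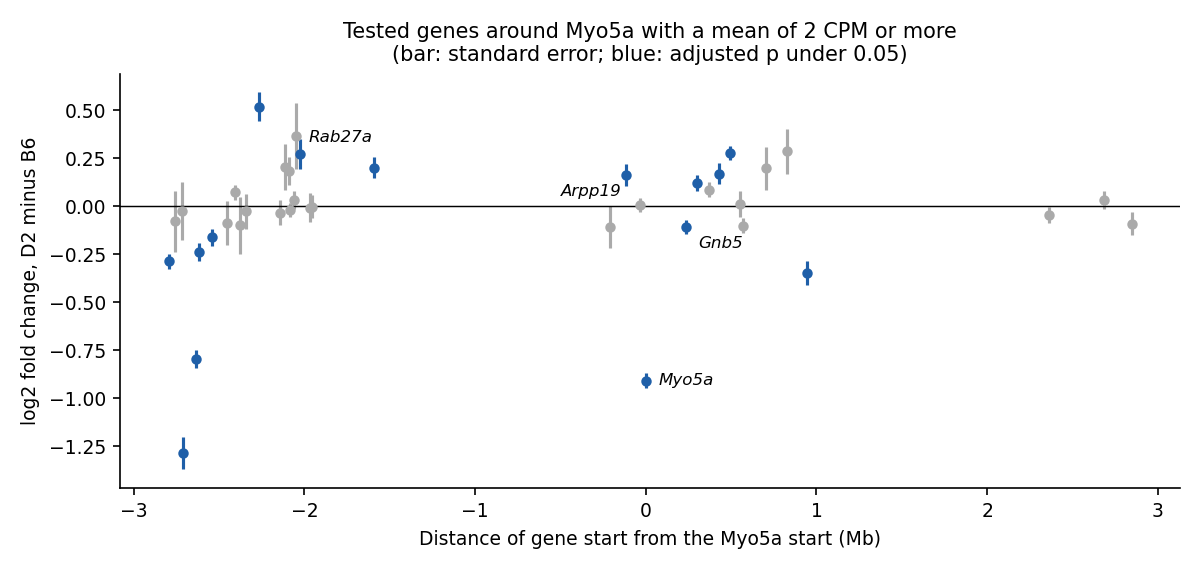
Log2 fold change (D2 minus B6, vertical axis, bar: standard error) of tested genes with a mean of 2 CPM or more against the distance of their start from that of Myo5a in Mb; blue points have an adjusted p under 0.05. Myo5a stands at -0.91, its neighbour Arpp19 near 0, and Rab27a, about 2 Mb before it, at 0.27. BC065403, at -1.29, stands lower than Myo5a. Gm37150 (-8.25), Gm36948 (-3.29) and the neighbour Myo5c lie under 2 CPM and are not drawn.

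By Pearson's r of log2 CPM over the 6 libraries, the genes most like Myo5a were Lrpprc (r = 0.999), which encodes a mitochondrial RNA-binding protein, Gabrr3 (r = 0.999), a GABA receptor subunit, and RP24-367H14.3 (r = 0.999). With 6 libraries that form a B6 and a D2 cluster, such an r mainly records the strain difference, and 1059 genes had an r over 0.95. Lrpprc fell from 143 to 67.3 CPM and Gabrr3 from 19.0 to 10.8 CPM.

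Of the GTPases, Rab27a (ENSMUSG00000032202.11, chromosome 9, 73044854 to 73097629, plus strand), the melanosome and secretory granule Rab that is lost in the ashen mouse, was the 1 gene of the 8 that rose. Its libraries stood at 9.20, 10.7 and 9.84 CPM in B6 and at 11.6, 12.7 and 11.6 CPM in D2. The strains did not overlap, but the highest B6 library and the lowest D2 libraries lay close together. The mean rose from 9.92 ± 0.760 to 11.97 ± 0.660 CPM (SD, n = 3), a 1.21-fold difference (log2 fold change 0.27 ± 0.08, edgeR adjusted p = 0.0153). Without B6 replicate 1 the log2 fold change was 0.22 (adjusted p = 0.0694), and without D2 replicate 2 it was 0.22 (adjusted p = 0.0758). Of its 31-base words 5.06% also occurred in other genes, most of them in Gm27186, a processed pseudogene that lies inside Rab27a and was not tested. Its neighbours Pigb, an enzyme gene of glycolipid anchor synthesis (4.48 kb before; 0.03 ± 0.05 log2, adjusted p = 0.669), and Gm20509 (4.84 kb after; -0.01 ± 0.07 log2, adjusted p = 0.948) did not pass.

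Rab27b (ENSMUSG00000024511.15, chromosome 18, 69979131 to 70141605, minus strand), the close relative of Rab27a that acts in platelet and neuronal secretion, was counted at 31.2, 32.1 and 30.6 CPM in B6 and at 28.2, 26.1 and 28.5 CPM in D2. All D2 libraries were lower than all B6 libraries, by a small margin. It fell by 0.18 ± 0.05 on the log2 scale, which is 11.9% lower (edgeR adjusted p = 0.00929). Without D2 replicate 2 the log2 fold change was -0.14 (adjusted p = 0.0503). That library had the highest summed pigment epithelium level of the D2 libraries, 170.4 CPM against 81.5 and 74.2 CPM, and the part of pigment epithelium in either Rab27 difference was not tested. Of its neighbours, 4930503L19Rik, 311 kb away, was lower in D2 (log2 fold change -1.07 ± 0.09, adjusted p = 1.92e-07), and Ccdc68, 9.65 kb away, did not pass (-0.35 ± 0.42 log2, adjusted p = 0.588).

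The counts of the Rab27 pair were also set against each other within each library. For each Rab27a count there were 3.39, 2.996 and 3.11 Rab27b counts in the B6 libraries and 2.43, 2.05 and 2.46 in the D2 libraries. The ratios did not overlap, with 3.17 ± 0.206 in B6 and 2.31 ± 0.227 in D2 (SD, n = 3; exact two-sided permutation test, p = 0.1, the smallest that 3 against 3 libraries allow). Per kilobase of exon, Rab27a made up 46.5% ± 1.60 of the pair in B6 and 54.4% ± 2.50 in D2 (exact permutation p = 0.1). With the longest transcript as the length these shares were 40.8% and 48.5%.

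Rab38 (ENSMUSG00000030559.8, chromosome 7, 88430273 to 88491572, plus strand), which sorts pigment enzymes to melanosomes and is mutated in the chocolate mouse, was counted in 156, 138 and 82 reads in B6 and in 53, 55 and 64 reads in D2. Scaled to CPM these were 3.61, 3.32 and 2.64 in B6 and 1.84, 1.69 and 1.84 in D2. No D2 library reached the lowest B6 library, and the B6 libraries spread more widely (15.6% of their mean) than those of D2 (4.78%). The mean went from 3.19 ± 0.499 to 1.79 ± 0.0856 CPM (SD, n = 3), 44.3% lower (log2 fold change -0.84 ± 0.15, edgeR adjusted p = 0.000649). Rab38 and Rab32 shared 0% of their 31-base words with any other gene.

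In the order of replicates, the pigment epithelium sum was 93.9, 146 and 205 CPM in B6 and 81.5, 170.4 and 74.2 CPM in D2, and the part of pigment epithelium in the Rab38 difference was not tested. Ctsc, the gene for the lysosomal protease cathepsin C, lies 119 kb before Rab38 and was also lower in D2 (16.4 ± 1.34 CPM for B6 against 10.2 ± 0.929 CPM for D2; log2 fold change -0.68 ± 0.08, adjusted p = 9.81e-06). Tmem135, 648 kb after it, did not pass (0.06 ± 0.04 log2, adjusted p = 0.349).

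Rab32 (ENSMUSG00000019832.5, chromosome 10, 10545002 to 10558265, minus strand), which overlaps with Rab38 in function in melanocytes, had 0.948, 1.32 and 0.772 CPM in B6 and 0.832, 0.769 and 1.01 CPM in D2. The libraries of the strains intermingled. The log2 fold change was -0.24 ± 0.24 (edgeR adjusted p = 0.522), with a 95% interval of the fold of D2 over B6 from 0.591 to 1.22, a range whose lower bound lies near the fold of 0.557 of Rab38. Per kilobase of exon Rab38 made up 82.4% ± 3.21 of the pair in B6 and 75.4% ± 2.03 in D2 (SD, n = 3; exact permutation p = 0.1, the smallest possible).

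Of the effectors, Myrip (ENSMUSG00000041794.13, chromosome 9, 120301513 to 120474841, plus strand), the linker between Rab27a and myosin VIIa or Va, was the most abundant. Its libraries stood at 86.5, 82.0 and 86.9 CPM in B6 and at 73.0, 68.2 and 72.8 CPM in D2. The strains were separated by more than the range within either. Myrip fell by 0.25 ± 0.04 on the log2 scale, from 85.1 ± 2.71 to 71.3 ± 2.69 CPM (SD, n = 3), which is 16.2% lower (edgeR adjusted p = 0.000171). Its neighbours were lower in D2 too: Eif1b, a translation initiation gene 17.4 kb after it, with a log2 fold change of -0.17 ± 0.04 (adjusted p = 0.00695), and Rpsa, a ribosomal protein gene 169 kb before it (log2 fold change -0.44 ± 0.04, adjusted p = 8.93e-07).

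Sytl2 (ENSMUSG00000030616.15, chromosome 7, 90302252 to 90410719, plus strand), a synaptotagmin-like protein that binds Rab27 and docks vesicles at the plasma membrane, had 11.7, 11.9 and 11.0 CPM in B6 and 11.0, 9.90 and 9.21 CPM in D2. The lowest B6 and the highest D2 library nearly touched. Its log2 fold change of -0.21 ± 0.08 missed the threshold (edgeR adjusted p = 0.051), and the 95% interval of the fold of D2 over B6 ran from 0.769 to 0.967. It passed in 8 of 14 alternatives, with adjusted p from 0.0216 to 0.211 over them.

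Mlph (ENSMUSG00000026303.6, chromosome 1, 90915085 to 90951142, plus strand), which encodes the melanocyte linker lost in the leaden mouse, was close to the detection limit. The B6 libraries held 9, 20 and 9 Mlph counts and the D2 libraries 14, 6 and 13, where a count of 0 would allow up to 0.0686 to 0.102 CPM. The strains overlapped, with means of 0.326 ± 0.140 CPM for B6 and 0.348 ± 0.152 CPM for D2 (SD, n = 3; log2 fold change 0.07 ± 0.42, edgeR adjusted p = 0.926). The 95% interval of the fold of D2 over B6 was 0.563 to 1.96, so differences within these bounds were not excluded. These bounds are not adjusted for the number of genes tested and are not a detection limit. In the order of replicates, Mlph stood at 0.208, 0.482 and 0.289 CPM in B6 and 0.485, 0.185 and 0.374 CPM in D2, and the pigment cell sum at 32.6, 68.8 and 29.9 CPM in B6 and 73.9, 26.8 and 18.3 CPM in D2. Each strain had its highest Mlph level in the library with its highest sum, while the order of the other libraries was reversed. The part of pigment cells in the level of Mlph was not tested.

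**Figure D3:**
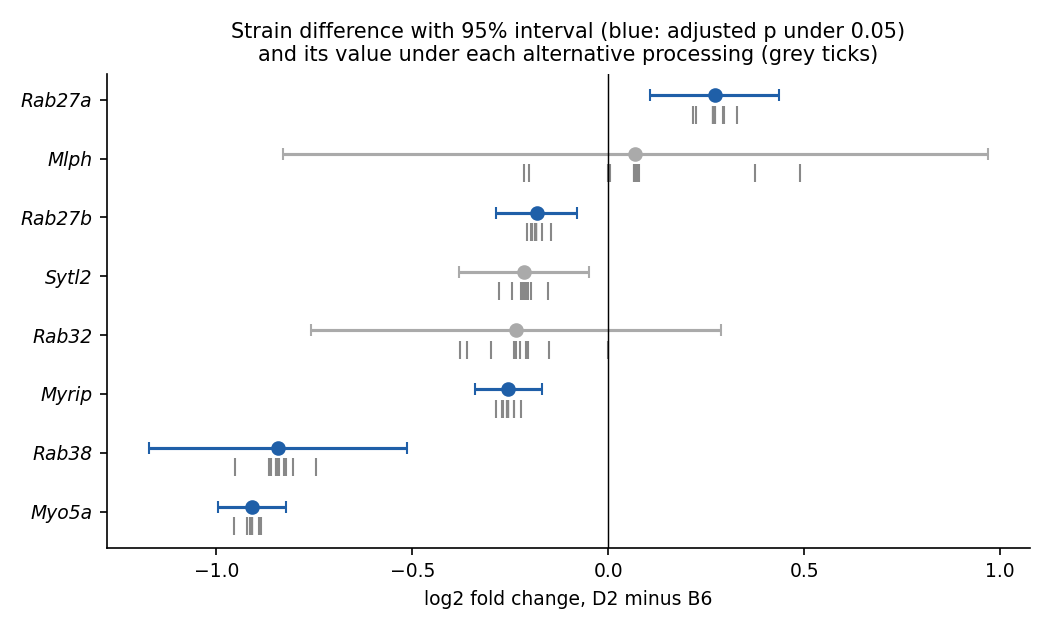
Log2 fold change (D2 minus B6, horizontal axis) of the 8 genes with the 95% interval; blue points have an adjusted p under 0.05 and grey ticks give the value under each alternative processing. Myo5a (-0.91) and Rab38 (-0.84) stand apart from the smaller differences, and the ticks of Mlph fall on both sides of 0.

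Levels were set side by side between genes per kilobase of annotated exon. In B6 the mean level was 20.1 CPM per kilobase for Myo5a and 15.4 for Myrip. Rab27b followed at 2.93, Rab27a at 2.56, Rab38 at 2.02, Sytl2 at 0.830, Rab32 at 0.434 and Mlph at 0.0609 CPM per kilobase. In D2 Myrip stood first at 12.9 CPM per kilobase and Myo5a second at 10.7, and Rab27a, at 3.09, stood above Rab27b, at 2.58. Neighbours in either order did not overlap between their libraries. With the longest transcript as the length, Myrip again stood above Myo5a in D2 (14.5 and 13.5 CPM per kilobase), but Rab27b (4.01) stood above Rab27a (3.78) with overlapping libraries, and Sytl2 moved above Rab38 in both strains. For each Myrip count there were 3.49 ± 0.0597 Myo5a counts in B6 and 2.22 ± 0.129 in D2 (SD, n = 3; exact permutation p = 0.1).

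In the authors' deposited table, which gives strain means on a scaled axis and a false discovery rate, Myo5a stood at 11.4 in B6 and 10.7 in D2 (false discovery rate 1.23e-194) and Rab38 at 6.56 and 5.94 (1.84e-08). These were the 2 genes of the 8 that the authors' deposited table marks as differentially expressed, beside 9.2% of its rows. The false discovery rate in the authors' deposited table was under 0.05 for 6 of the 8, all but Rab32 and Mlph, beside 40.9% of its rows.

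The other genes of the pathway were read from lists. Of 13 tested effectors and regulators of Rab27, 1 rose, 0 fell and 12 did not pass, or 7.69% called beside 29.7% of all tested genes, with a median log2 fold change of 0.08. Madd, the exchange factor that activates Rab27 and Rab3, rose from 318 ± 15.6 to 384 ± 13.7 CPM (log2 fold change 0.27 ± 0.04, edgeR adjusted p = 0.00017), with all D2 libraries above all B6 libraries. Rph3a, the synaptic effector rabphilin, had 93.2 ± 1.57 CPM for B6 and 87.7 ± 1.43 CPM for D2 (adjusted p = 0.067). Chm, the Rab escort protein whose human gene is mutated in choroideremia, where Rab27a is left without its lipid anchor, stood at 73.1 ± 5.20 and 73.6 ± 1.85 CPM (log2 fold change 0.01 ± 0.05, adjusted p = 0.938). The synaptotagmin-like genes Sytl1, Sytl3 and Sytl5 had low levels and did not pass, and Sytl4, with 3 to 7 counts a library, was not tested.

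Of 21 tested regulators of Rab32 and Rab38 and subunits of the complexes that sort cargo to lysosome-related organelles, 5 rose, 1 fell and 15 did not pass, or 28.6% called, near the 29.7% of all tested genes, with a median log2 fold change of -0.02. Bloc1s6, which encodes pallidin of the BLOC-1 complex, rose 1.49-fold, from 20.1, 19.2 and 19.5 CPM in B6 to 29.4, 28.7 and 29.6 CPM in D2 (log2 fold change 0.57 ± 0.05, edgeR adjusted p = 1.91e-07). The AP-3 subunit Ap3s1 (0.21 ± 0.04 log2, adjusted p = 0.00184) and the BLOC-1 subunit Bloc1s5 (0.18 ± 0.05 log2, adjusted p = 0.00858) rose by less. The BLOC-2 subunit Hps3 fell (log2 fold change -0.21 ± 0.04, adjusted p = 0.000588). Hps1 and Hps4, which form the exchange factor of Rab32 and Rab38, stood at -0.08 ± 0.14 and -0.03 ± 0.05 log2 and did not pass. Of the most abundant members, Vps33a had 77.2 ± 0.539 CPM for B6 and 81.6 ± 4.47 CPM for D2 (adjusted p = 0.158). Without D2 replicate 3, 3 of the 21 passed, beside 4626 of the 18805 genes tested in that setting.

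Of 14 motors and actin partners, 2 rose, 6 fell and 6 did not pass, or 57.1% called beside 29.7% of all tested genes, of which 15.3% fell, with a median log2 fold change of -0.05. Without D2 replicate 1, 5 of the 14 passed, beside 4672 of the 18910 genes tested in that setting. Myo7a, the myosin that Myrip links to Rab27a in pigment epithelium, stood at 22.0, 22.3 and 26.3 CPM in B6 and at 0.832, 1.14 and 0.547 CPM in D2, 28.0-fold lower. For each Myo7a count there were 12.7 ± 1.17 Myo5a counts in B6 and 206 ± 77.1 in D2 (SD, n = 3; exact permutation p = 0.1). Myo5b, the class V myosin of recycling endosomes, fell 1.34-fold (27.9 ± 1.43 and 20.7 ± 0.720 CPM; log2 fold change -0.43 ± 0.05, edgeR adjusted p = 1.77e-05). Per kilobase of exon, Myo5a made up 86.9% ± 0.416 of the class V myosins Myo5a, Myo5b and Myo5c in B6 and 82.4% ± 0.397 in D2 (exact permutation p = 0.1).

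Mreg, the melanoregulin gene whose loss in the mouse suppresses the dilute coat colour, rose from 68.2, 63.6 and 61.1 CPM in B6 to 74.9, 72.8 and 78.1 CPM in D2 (log2 fold change 0.23 ± 0.04, edgeR adjusted p = 0.00125). The formin Fmn1, which assembles actin tracks, fell (log2 fold change -0.21 ± 0.04, adjusted p = 0.000493). The dynein heavy chain Dync1h1, the most abundant of the list, fell from 670 ± 61.0 to 588 ± 40.3 CPM (adjusted p = 0.0299) with overlapping libraries. The kinesin light chain Klc1 stood at 349 ± 4.60 and 359 ± 6.05 CPM (adjusted p = 0.43).

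**Figure D4:**
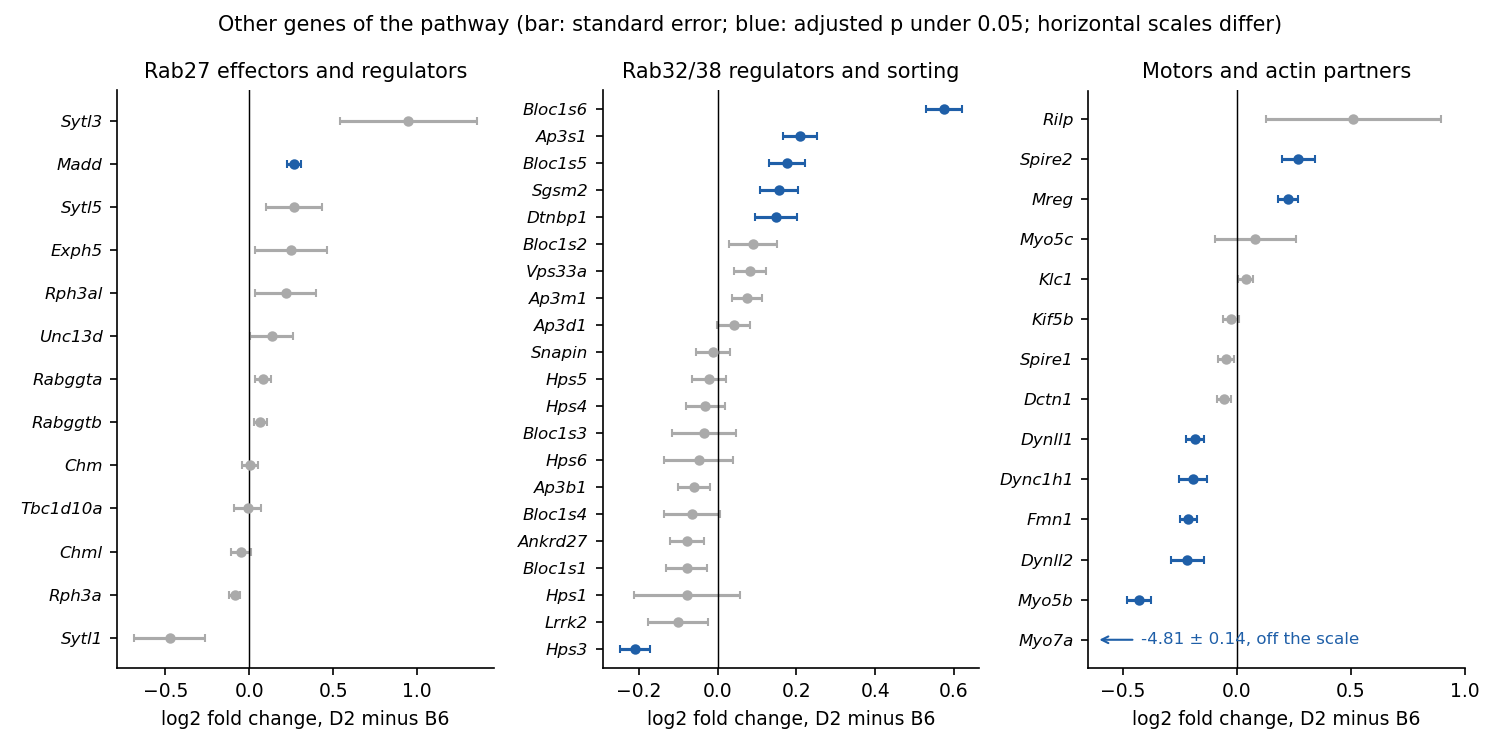
Log2 fold change (D2 minus B6, horizontal axes) of the tested genes of the 3 pathway lists, with the standard error; blue points have an adjusted p under 0.05. Bloc1s6 stands highest in its list at 0.57, and Myo7a, at -4.81, lies off the scale and is marked by an arrow.

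Pigment tissue markers varied within strains. Rpe65, the retinoid isomerase of pigment epithelium, stood at 7.98, 16.7 and 28.7 CPM in B6 and at 7.80, 23.2 and 5.96 CPM in D2. Of the 8 pigment epithelium markers 1, Rrh, fell and 0 rose. Of the 8 pigment cell markers 1, Mitf, rose (8.51 ± 0.473 and 10.3 ± 0.369 CPM; log2 fold change 0.27 ± 0.08, edgeR adjusted p = 0.0156) and 0 fell. Mitf encodes the transcription factor that directs pigment cell genes. In each of these lists 12.5% of the markers were called, beside 29.7% of all tested genes (14.5% higher and 15.3% lower).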

How the data were processed

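Total RNA of retina was sequenced in 6 libraries. Tools named in the submitters' processing notes are STAR, FastQC, edgeR and SAMtools, with the build mm10; for the counter, annotation and strand setting no source used here gives a name. The table of whole-number counts by symbol that the authors deposited is not normalized. The authors also deposited strain means and standard errors as scores on a scaled axis, with a false discovery rate (an adjusted p-value) from a test that no source used here names.

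Columns were matched to samples by title. Counts were filtered with filterByExpr, scaled by TMM and tested with edgeR 4.0.16 (R 4.3.3) in a quasi-likelihood model of strain, with Benjamini-Hochberg adjustment over 18588 genes and a threshold of 0.05. Standard errors were derived from the F statistic. Shares and ratios were compared by exact permutation tests (scipy 1.17.1). Positions and exon lengths come from GENCODE M21 (mm10). The model was tested on simulated data. The 95% intervals come from the quasi-likelihood test and include the spread among libraries. Detection floors (3 counts per library) cover counting error only. The genes, lists and alternatives were chosen with earlier results of these data known. Named genes were the 8 genes, up to 4 called and the 2 most abundant genes of each list, Myo5b, Myo5c, Myo7a and Mreg, the neighbours of called genes and the 3 patterns most like Myo5a; Chm, Hps1, Hps4, Sytl1, Sytl3, Sytl4, Sytl5 and pigment markers were added for their roles. Markers of neural retina, pigment epithelium, pigment cells, ciliary epithelium and microglia were also listed. Alternatives were DESeq2 1.42.0 size factors and Wald test, upper quartile factors, limma-voom (limma 3.58.1), 2 other filters, the replicate block, removal of the most abundant transcripts and leaving out each library.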

Additional observations from a re-analysis of the deposited data

How the results depend on the processing

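Myo5a, Rab38 and Myrip kept their direction and passed in all 14 alternatives, with log2 fold changes from -0.95 to -0.89, -0.95 to -0.75 and -0.29 to -0.22. Sytl2, which did not pass, passed with DESeq2 size factors (-0.22), upper quartile factors (-0.22), limma-voom (-0.22), no low-count filter (-0.21), the filter of 1 CPM in 3 libraries (-0.22) and without the most abundant transcripts (-0.21). Leaving out 1 library gave ranges of -0.28 to -0.15 for Sytl2, 0.22 to 0.33 for Rab27a, -0.21 to -0.14 for Rab27b, -0.38 to 0.000789 for Rab32 and -0.21 to 0.49 for Mlph. The sign of Mlph turned without B6 replicate 1 (-0.20) or D2 replicate 1 (-0.21), and that of Rab32 without B6 replicate 2 (0.000789), none past the threshold. The cause was not tested.

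The number of the 8 genes called was 3 to 6 when 1 library was left out, and 3 without D2 replicate 2. Over all tested genes, leaving out 1 library gave 4502 to 5171 called, fewer than the 5524 with all 6 libraries. The counts for Rab27 regulators (1 to 2), Rab32 and Rab38 regulators (3 to 6) and motors (5 to 7) are ranges over the same settings, and upper quartile factors gave 2 Rab27 regulators. Mlph and Rab32 had no value under the filter of 1 CPM. Same-numbered libraries had correlations of 0.14, 0.07 and -0.03 of their deviations from strain means. Of the 6 libraries, 3 correlated best with their own number. With 3 libraries per strain, whose deviations sum to 0, these values cannot decide whether the numbers pair the libraries. With the replicate block 5093 genes were called in place of 5524, and 5 of the 8. DESeq2 called 4532. The low counts of Mlph (71 in all) and Rab32 (204) limit what could be detected.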
